A study of Mus musculus with 34 samples.

Results

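The surface receptors described here are 9 genes with known roles in adhesion and in homing to the bone marrow, Cxcr4, Selplg, Cd44, Itga4, Itga5, Itgb1, Cd9, Cd34 and Thy1, out of 19938 genes measured. They were chosen by name. Each is represented by the probeset listed with its symbol alone that had the highest mean signal over all arrays, and each of the 9 had 1 such probeset. Expression was measured on 34 Affymetrix Mouse Gene 1.0 ST arrays in 2 murine pre-B acute lymphoblastic leukaemia lines, Bin-2 and 8093, each derived from a BCR/ABL transgenic mouse, Bin-2 on a mixed genetic background and 8093 on inbred C57Bl/6J. Both lines were grown in medium with IL-3 on an irradiated feeder layer of mouse embryonic fibroblasts, which stayed in place for the whole course. Cells floating in the medium or loosely attached on top of the feeder were collected for RNA.

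The study followed each line under a drug that first killed most cells and was then tolerated. Bin-2 received 50 nM nilotinib, an inhibitor of the ABL tyrosine kinase, or 0.25 µM lonafarnib, an inhibitor of farnesyltransferase. 8093 received 20 nM nilotinib or 1 µM lonafarnib. Each of the 4 courses was sampled 3 times, before drug (the start, day 0), early under drug (the midpoint) and after regrowth (the end). The midpoint was day 3, except day 4 for 8093 with lonafarnib, and viability was then 5 to 10%, except 20% for 8093 with lonafarnib. The end, at about 90% viability in the continued presence of drug, was day 21 for Bin-2 with nilotinib, day 30 for Bin-2 with lonafarnib, day 20 for 8093 with nilotinib and day 26 for 8093 with lonafarnib. Every group had 3 arrays from separate plates except the 2 ends of 8093, with 2 arrays each. No untreated culture was followed to the later days, so time in culture and drug cannot be told apart. Each line stands for 1 leukaemia. Sample titles call the arrays biological replicates, but nothing else in the labels says that plates of a course were independent cultures. P-values therefore measure the spread between plates.

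Precursor B cells are held in the marrow by several receptors that act together. CXCR4 is the receptor for the chemokine CXCL12 made by marrow stroma. Selectin ligands such as PSGL-1, encoded by Selplg, let cells roll on endothelium, and CD44 binds hyaluronan. The integrins VLA-4 (α4β1, from Itga4 and Itgb1), which binds VCAM-1 and fibronectin, and VLA-5 (α5β1, from Itga5 and Itgb1), which binds fibronectin, give firm adhesion. CD9 is a tetraspanin that associates with β1 integrins in the membrane. CD34 is a sialomucin best known on haematopoietic progenitors and also present on mouse mast cells, and THY1 is a glycolipid-anchored protein of thymocytes, neurons and some progenitors.

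The promoters of Cd34, Cd44, Cd9 and Cxcr4 are shown because these genes had wide ranges of signal over the 12 groups, the first 3 rising and Cxcr4 falling in 8093 with nilotinib. Sequences are from RefSeq (GRCm38.p6) and run 5′ to 3′ on the strand of the gene, from 250 bases before to 50 bases after its start. Capitals mark the letters GATAA and GGGCGG read on either strand. The regions are chr1:194938571-194938870 (plus strand) for Cd34, chr2:102901616-102901915 (minus strand) for Cd44, chr6:125494711-125495010 (minus strand) for Cd9 and chr1:128592250-128592549 (minus strand) for Cxcr4.
Cd34: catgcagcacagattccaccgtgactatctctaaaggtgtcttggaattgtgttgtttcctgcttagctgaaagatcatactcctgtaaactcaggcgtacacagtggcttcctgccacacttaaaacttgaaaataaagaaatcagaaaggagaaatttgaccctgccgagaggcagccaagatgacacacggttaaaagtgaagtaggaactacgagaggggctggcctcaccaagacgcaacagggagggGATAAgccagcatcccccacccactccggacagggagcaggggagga
Cd44: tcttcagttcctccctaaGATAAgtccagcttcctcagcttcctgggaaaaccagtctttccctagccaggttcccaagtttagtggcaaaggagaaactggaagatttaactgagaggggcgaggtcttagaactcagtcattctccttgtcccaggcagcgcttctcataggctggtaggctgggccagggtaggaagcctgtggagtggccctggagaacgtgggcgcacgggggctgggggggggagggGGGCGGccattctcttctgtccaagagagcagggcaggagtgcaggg
Cd9: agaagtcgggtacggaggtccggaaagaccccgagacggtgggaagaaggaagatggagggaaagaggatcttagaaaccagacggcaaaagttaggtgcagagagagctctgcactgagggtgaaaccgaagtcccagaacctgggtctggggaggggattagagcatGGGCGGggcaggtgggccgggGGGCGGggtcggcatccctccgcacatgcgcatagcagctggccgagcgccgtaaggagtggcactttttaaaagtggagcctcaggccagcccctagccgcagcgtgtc
Cxcr4: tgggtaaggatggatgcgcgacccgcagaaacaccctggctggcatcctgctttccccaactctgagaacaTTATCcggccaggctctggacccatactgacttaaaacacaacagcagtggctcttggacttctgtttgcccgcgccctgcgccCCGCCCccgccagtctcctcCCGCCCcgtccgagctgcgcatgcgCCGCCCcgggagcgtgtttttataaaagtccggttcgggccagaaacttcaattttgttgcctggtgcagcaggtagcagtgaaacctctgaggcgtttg
The Cd34 promoter held 1 GATAA and no GGGCGG, the Cd44 promoter 1 of each, the Cd9 promoter 2 GGGCGG, and the Cxcr4 promoter 1 GATAA, 3 GGGCGG and 2 overlapping TATAAA, 1 on each strand. Among 32851 promoters of 300 bases, 25.4% held GATAA, 35.7% GGGCGG and 13.6% TATAAA on either strand. Other letters searched were CANNTG, with 3 matches in Cd9 and in 72.3% of all promoters, and TGTTTAC and TTCNNNGAA, with no match in these 4 genes and in 3.65% and 8.3% of all promoters. No match marked in capitals overlapped a match of another motif. A promoter was also found for Itga4, Itga5 and Itgb1, 7 of 9 genes in all. On GRCm38.p6 the genes themselves lie at chr1:128588199-128592299 (Cxcr4), chr5:113817798-113832528 (Selplg), chr2:102811141-102901669 (Cd44), chr2:79255426-79333114 (Itga4), chr15:103344286-103366791 (Itga5), chr8:128685654-128733579 (Itgb1), chr6:125460266-125494760 (Cd9), chr1:194938821-194961292 (Cd34) and chr9:44043384-44048579 (Thy1).

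The identity of the cells was checked with marker genes before the receptors were compared. Signal is given as log2 units throughout, and the level of olfactory receptor genes, which these cells are not known to use, serves as a yardstick of background (the 95th percentile of 1027 such genes, 4.53 to 5.17 depending on the group). The mean over 19 pre-B cell markers lay between 8.18 and 9.12 on every array except both at the nilotinib end of 8093, where it was 5.79 and 5.66. Igll1, the surrogate light chain gene, had means of 12.02, 11.18 and 7.50 over start, midpoint and end of that course. The mean over 14 mast cell and basophil markers in the same course was 3.91 at the start, with 3 of 14 markers above the olfactory level, 8.70 at the midpoint and 10.65 at the end, with 14 of 14. At that end 18 of 19 pre-B markers had fallen against the start (24.9% of all genes fell), while 16 of 19 were above the olfactory level, as many as at the midpoint, against 19 at the start. The olfactory level differed, at 5.17 at the midpoint and 4.55 at the end. The pre-B mean was 8.47 at the midpoint and 5.73 at the end. The label of pre-B leukaemia is thus borne out only in part by these markers on the 2 arrays of that group. The mean over 16 macrophage markers was also higher at midpoints and ends than at starts. Over start, midpoint and end it was 5.59, 7.90 and 8.73 in Bin-2 with nilotinib, and 4.90, 8.41 and 8.37 in 8093 with nilotinib. With lonafarnib it was 5.57, 6.81 and 6.13 in Bin-2 and 4.92, 6.33 and 5.53 in 8093. The mean over 23 fibroblast markers, the cell type of the feeder, was higher at every midpoint than at its start, with no overlap of arrays. Over start, midpoint and end it was 4.82, 5.17 and 4.99 in Bin-2 with nilotinib, 4.92, 5.38 and 4.79 in Bin-2 with lonafarnib, 4.76, 5.69 and 5.11 in 8093 with nilotinib, and 4.74, 4.97 and 4.73 in 8093 with lonafarnib. The olfactory level was also higher at every midpoint than at its start, most in 8093 with nilotinib (5.17 against 4.65). Of the 23 fibroblast markers, 12 or 13 were above that level at each start and 13 or 14 at each midpoint. The part of these markers in the midpoint changes of the receptors was not tested. The mean over 14 T and NK cell markers lay between 4.15 and 4.61 on all arrays. In bulk RNA, fewer cells of a type and less RNA per cell cannot be told apart, which holds for every value below.

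Before drug the lines differed in 4 of the 9 receptors, against 20.1% of all genes, when the 6 start arrays of each line were compared (1 higher in Bin-2, against 9.47%, and 3 lower, against 10.6%, by limma with Benjamini-Hochberg adjustment over all 19938 genes, called at an adjusted p below 0.05). Bin-2 had more Itga4 and less Cd9, Thy1 and Itga5 than 8093. Itga4 ranged from 10.27 to 10.52 on the 6 Bin-2 arrays and from 9.14 to 9.36 on the 6 arrays of 8093, a difference of 1.19 ± 0.07 (SE, adjusted p 1.3e-13). Thy1 ranged from 6.41 to 6.78 in Bin-2 and from 8.53 to 8.92 in 8093, a difference of -2.09 ± 0.11 (adjusted p 1.6e-15). Cd9 ranged from 4.99 to 6.01 in Bin-2 and from 7.72 to 8.07 in 8093, a difference of -2.46 ± 0.25 (adjusted p 4.0e-09). For these 3 genes no start array of one line reached the range of the other. Itga5 differed by -0.41 ± 0.11 (adjusted p 0.0049), from 6.10 to 6.25 in Bin-2 against 6.37 to 6.91 in 8093. Cd44, Selplg, Itgb1 and Cd34 were not called, with differences of 0.49, -0.10, 0.09 and 0.08. Cxcr4 was higher on every Bin-2 array, yet its difference of 0.25 was not called (adjusted p 0.25). Between the nilotinib and lonafarnib start plates of a line, limma called 0 of 9 receptors in Bin-2 and in 8093, and 0% of all genes. Without adjustment, p was below 0.05 for 0 receptors and 1085 genes in Bin-2, and for 1 receptor (Selplg, -0.43 for nilotinib minus lonafarnib plates) and 2350 genes in 8093.

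**Figure D1:**
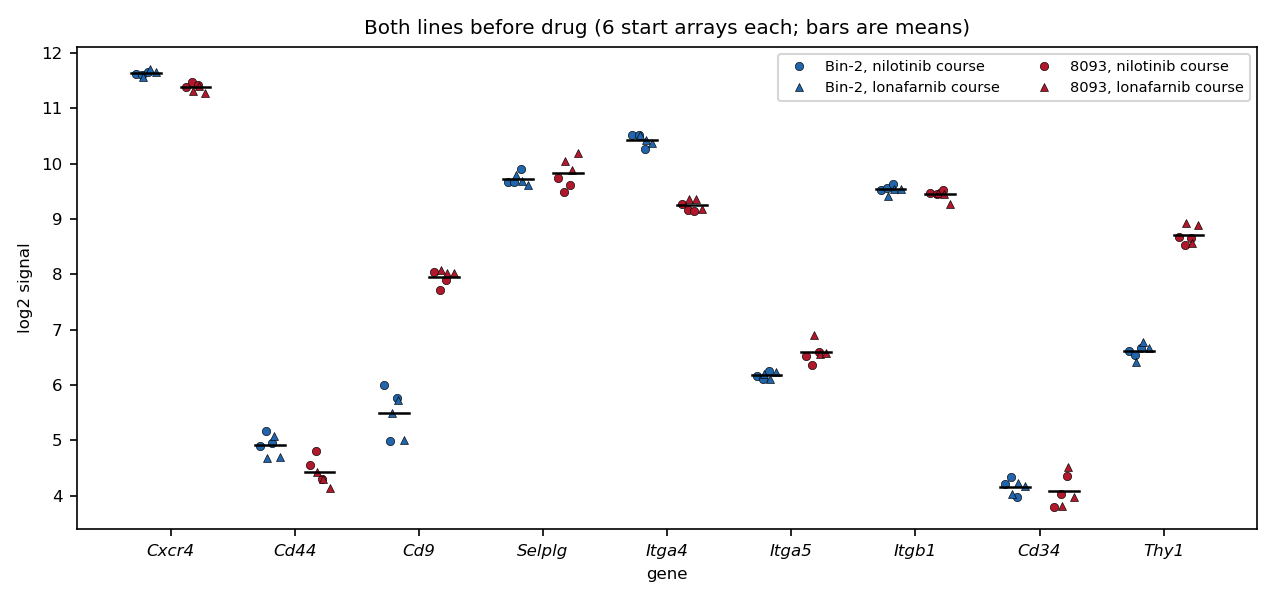
Log2 signal of the 9 receptors (y axis) on the start arrays, Bin-2 in blue at the left and 8093 in red at the right of each gene; circles are plates of the nilotinib course, triangles plates of the lonafarnib course and bars the mean of 6 arrays. Itga4 lies higher in Bin-2, and Cd9, Thy1 and Itga5 lie lower, with no overlap.

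Relative to the start of the same course, more receptors changed with nilotinib than with lonafarnib in each line, and the share of all genes that changed differed widely between courses. Each count is given beside that share. At the nilotinib midpoint of Bin-2, 5 of 9 receptors were called, against 3.47% of all genes, of which 4 rose (1.87% of genes) and 1 fell (1.6%). At its end 5 were called, against 8.89%, of which 4 rose (4.95%) and 1 fell (3.94%). At the lonafarnib midpoint of Bin-2, 2 were called, against 16.5%, and both rose (4.45%), while none fell (12%). At its end 3 were called, against 8.07%, of which 1 rose (4.66%) and 2 fell (3.41%). In 8093 the nilotinib midpoint had 7 called, against 50.1%, of which 5 rose (22.6%) and 2 fell (27.5%), and the end had 8, against 44.5%, of which 5 rose (19.6%) and 3 fell (24.9%). The lonafarnib midpoint of 8093 had 2 called, against 10.8%, and both rose (3.89%), while none fell (6.9%), and the end had 2, against 8.71%, 1 up (4.4%) and 1 down (4.31%). In the nilotinib course of 8093 so many genes were called that the count of receptors says little, and the sizes of their changes carry the description. Over the 9 receptors the median change by the nilotinib end was 0.09 in Bin-2, against -0.03 for all genes, and 0.43 in 8093, against -0.15.

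**Figure D2:**
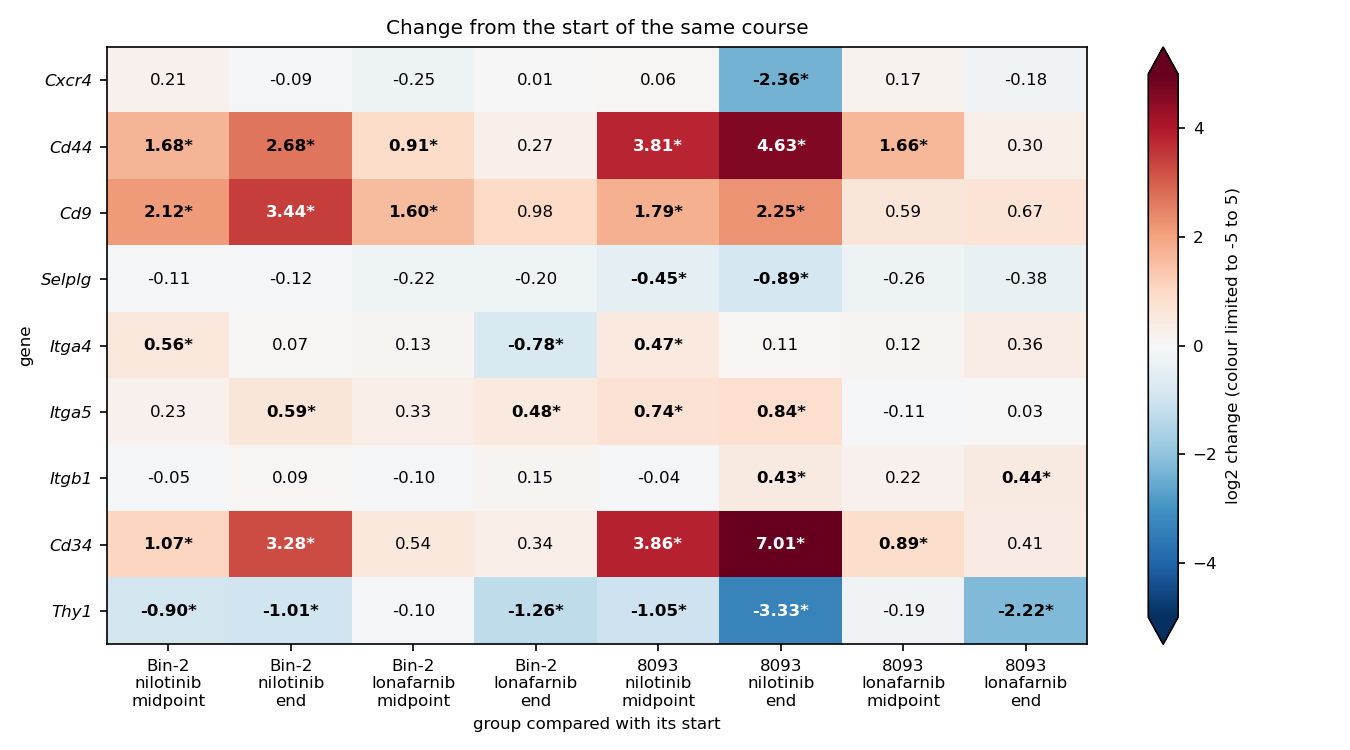
Log2 change of each receptor from the start of its own course (rows genes, columns the midpoint and end groups); red is higher and blue lower than the start, and bold values with a star were called at an adjusted p below 0.05. Cd44, Cd9 and Cd34 are red in the nilotinib columns of both lines, and Thy1 is blue at all 4 ends.

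Group means of the receptors differed widely in range. The range spanned 7.01 log2 units for Cd34, 4.90 for Cd44, 4.72 for Cd9, 3.50 for Thy1 and 2.77 for Cxcr4, and 1.80, 1.32, 1.16 and 0.53 for Itga4, Selplg, Itga5 and Itgb1. The span of Cd34 exceeded that of 99.8% of all genes and that of Itgb1 exceeded 21.1%. Cd34 was above the olfactory level in 5 of 12 groups, Cd44 in 10 and the other 7 receptors in all 12.

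**Figure D3:**
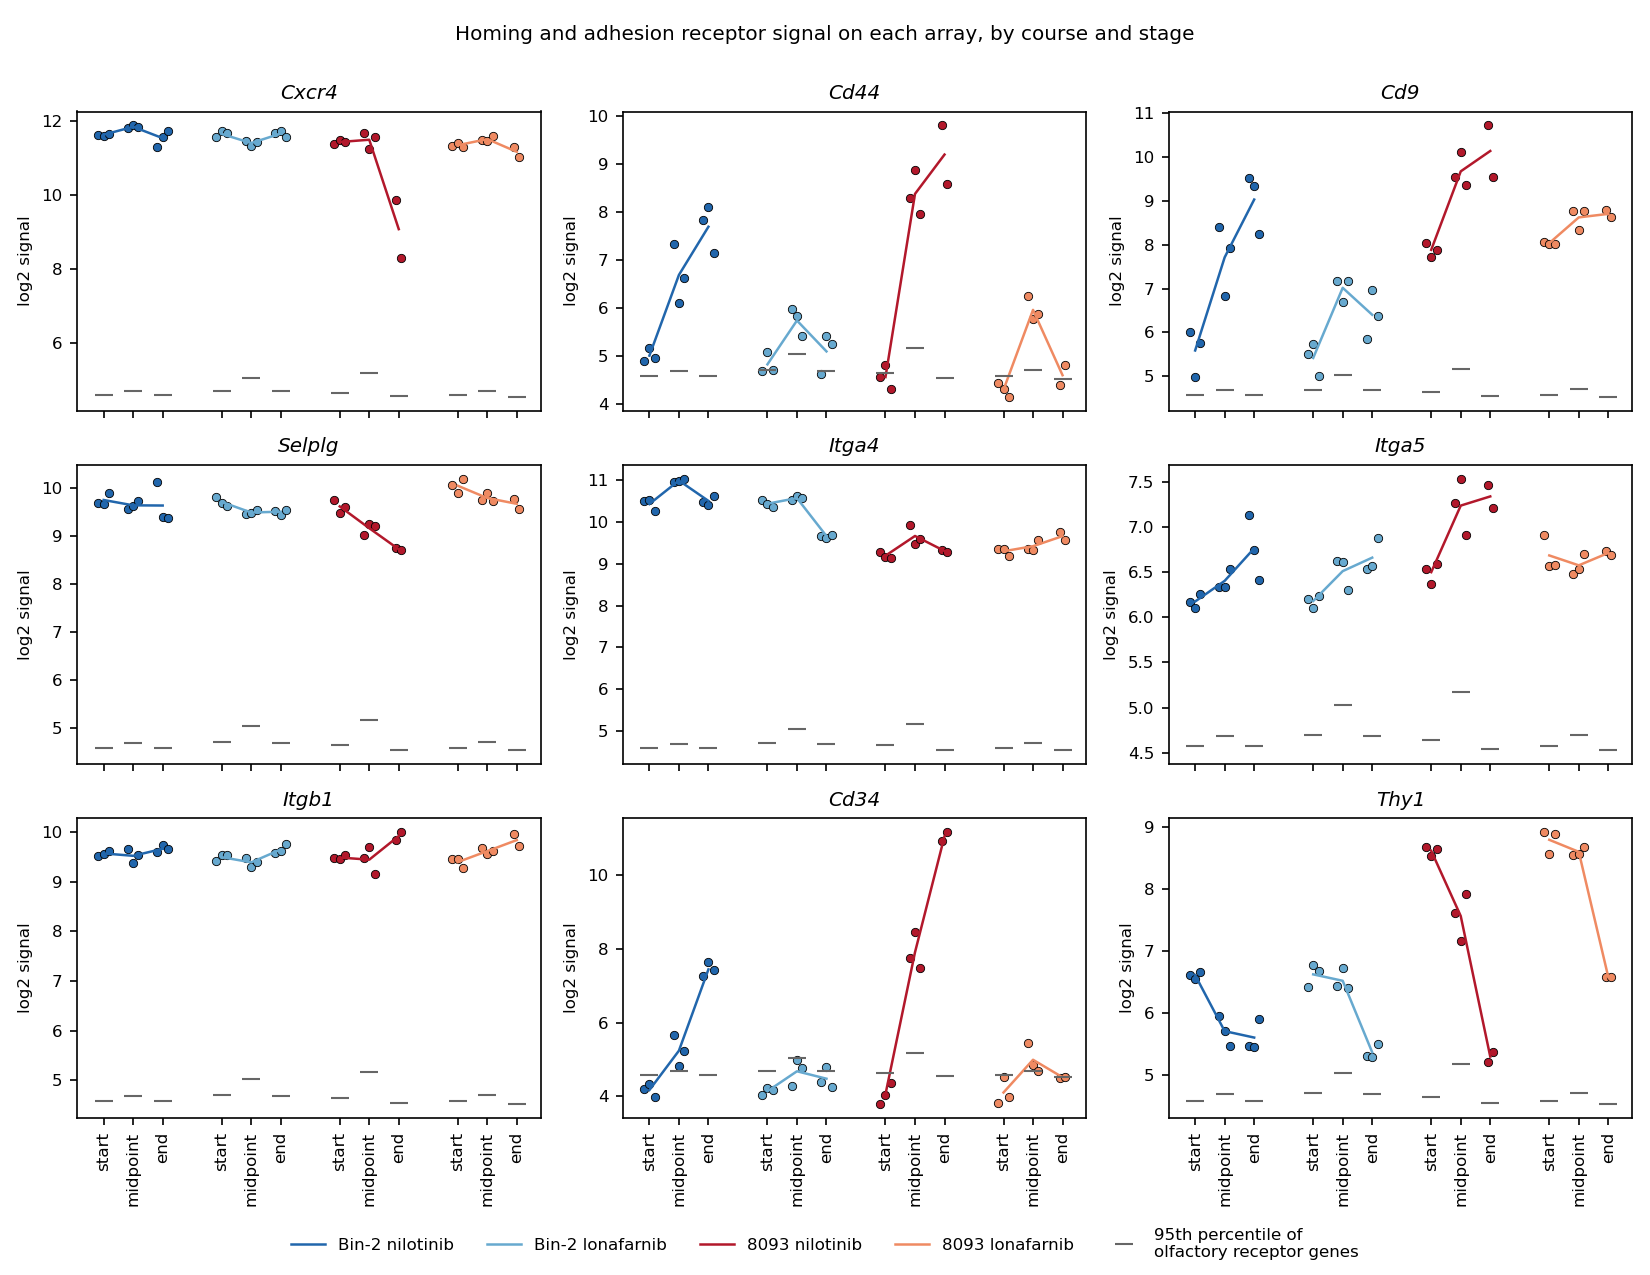
Log2 signal (y axis) of each receptor on each of the 34 arrays, by course and stage (x axis), with a line through the group means and a grey dash at the 95th percentile of olfactory receptor genes in that group. Cxcr4 is level except for the 2 arrays at the nilotinib end of 8093, and Thy1 is lower at every end than at its start.

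Cxcr4, the CXCL12 receptor, had one of the steadiest levels until the nilotinib end of 8093. In Bin-2 with nilotinib the arrays read 11.62, 11.60 and 11.66 at the start, 11.80, 11.88 and 11.83 at the midpoint and 11.30, 11.56 and 11.74 at the end. In 8093 with nilotinib they read 11.39, 11.48 and 11.42 at the start, 11.67, 11.23 and 11.57 at the midpoint, and 9.85 and 8.29 at the end. Both end arrays of that course lay below every other array of the series, and they differed from each other by more than all the other arrays did. The change from start to end was -2.36 ± 0.22 (adjusted p 3.1e-10), -3.14 without end replicate 1 and -1.58 without end replicate 2. That error and p-value use 1 spread shared by all 12 groups. The 2 end arrays had an SD of 1.10, against a median group SD of 0.08, so the shared spread is narrower than that at this end. The pre-B marker mean was also low on both arrays, and macrophage markers averaged 9.11 on the array with Cxcr4 at 9.85 and 7.64 on the one at 8.29, with mast cell markers at 10.68 and 10.63. The part of these lists in the result was not tested. In the other 3 courses Cxcr4 was not called at any stage, with changes between -0.25 and 0.21 from the start. In the order of the 12 group means no neighbours among the top 11, from 11.84 to 11.16, were called different, and the last lay 2.09 below (adjusted p 2.7e-08). Cxcl12, the ligand, named after its values were seen, was above the olfactory level in none of the 12 groups and was not called against any start.

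The group means of Selplg, which encodes PSGL-1, spanned 1.32 log2 units, a wider span than that of 78.2% of all genes. Selplg was called against its start in 8093 with nilotinib alone. The arrays of that course read 9.75, 9.48 and 9.61 at the start, 9.03, 9.25 and 9.21 at the midpoint and 8.74 and 8.70 at the end. The 3 stages did not overlap. The pre-B marker mean at these stages was 8.56, 8.47 and 5.73, and its part in the falls of Selplg and Thy1 in this course was not tested. The changes from the start were -0.45 ± 0.13 at the midpoint (adjusted p 0.0058) and -0.89 ± 0.15 at the end (adjusted p 9.5e-06), and the midpoint value was not called after quantile normalization of the arrays (-0.18, adjusted p 0.283). Before drug the start plates of 8093 had Selplg means of 9.61 for nilotinib and 10.05 for lonafarnib. That gap, not called, was about as wide as the midpoint change. In the other courses the change from the start lay between -0.38 and -0.11 and was not called. At the nilotinib end of Bin-2 replicate 1 read 10.12 and the others 9.40 and 9.38, so that group spread more than any other. Of 19 other genes of selectin binding, 3 rose and 6 fell at the nilotinib midpoint of 8093, where 22.6% of all genes rose and 27.5% fell, and 6 rose and 4 fell at its end (median change 0.07), where 19.6% rose and 24.9% fell. Gcnt1, which builds the core 2 branch of selectin ligands, rose by 4.18 ± 0.24 there (adjusted p 3.6e-15), and St3gal6, a sialyltransferase of the same pathway, fell by 3.00 on the log2 scale (adjusted p 2.9e-16). In Bin-2, whose nilotinib end had 2 of 19 called up and 1 down (median -0.03, with 4.95% of all genes up and 3.94% down), the same genes changed by 0.90 and -0.61. With lonafarnib Cd24a, a mucin-like ligand of P-selectin, fell by 0.85 on the log2 scale at the end in Bin-2 and by 1.27 in 8093. It also fell by 0.94 at the nilotinib end of 8093, and was not called at that of Bin-2 (0.05).

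Cd44, the hyaluronan receptor, was low before drug, not above the olfactory level at either start of 8093, and rose in all 4 courses at the midpoint. In Bin-2 with nilotinib the arrays read 4.90, 5.17 and 4.95 at the start, 7.32, 6.11 and 6.62 at the midpoint and 7.82, 8.10 and 7.13 at the end. Those of 8093 with nilotinib read 4.55, 4.81 and 4.31 at the start, 8.29, 8.87 and 7.95 at the midpoint, and 9.80 and 8.58 at the end. No array of a later stage reached down to the starts in either course. The end changes were 2.68 ± 0.29 in Bin-2 (adjusted p 1.1e-07) and 4.63 ± 0.33 in 8093 (adjusted p 4.9e-13). Since the start of 8093 was not above the olfactory level, its rise is given as at least 13.2-fold at the midpoint and at least 23.3-fold at the end, measured from that level. The olfactory level was 4.65 at the start and 5.17 at the midpoint, so a midpoint bound measured from the latter would be lower. The end bound rests on 2 arrays and was 15.2-fold without end replicate 1 and 35.7-fold without end replicate 2. In Bin-2 with lonafarnib the olfactory level was itself 5.03 at the midpoint, against 4.70 at the start. With lonafarnib a rise of Cd44 was called at the midpoint and not at the end. In Bin-2 the arrays read 4.69, 5.08 and 4.70, then 5.97, 5.82 and 5.41, then 4.61, 5.41 and 5.25, and in 8093 they read 4.44, 4.30 and 4.14, then 6.25, 5.76 and 5.86, then 4.39 and 4.80. The midpoint changes were 0.91 ± 0.29 in Bin-2 (adjusted p 0.031) and 1.66 ± 0.29 in 8093 (adjusted p 3.0e-04, at least 2.60-fold from the olfactory level), and the Bin-2 call was lost in 4 of the 6 fits that left out 1 of its arrays (largest adjusted p 0.0966). From midpoint to end it fell by 1.36 on the log2 scale in 8093 (adjusted p 0.0085), a call lost without end replicate 1 (adjusted p 0.142).

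Among 18 other genes around CD44, its ligands, processing enzymes and cytoskeletal linkers, 2 rose and 1 fell by the nilotinib end in Bin-2 (median change 0.01, against -0.03 for all genes, of which 4.95% rose and 3.94% fell), and 4 rose and 7 fell in 8093 (median -0.06, against -0.15, with 19.6% rising and 24.9% falling). Cd74, the invariant chain, which partners with CD44 as a receptor for MIF, rose by 4.23 ± 0.28 at the nilotinib end of Bin-2 (adjusted p 6.9e-12), and Mmp9, a protease that docks on CD44, by 3.76 ± 0.46 (adjusted p 7.4e-07). In 8093 Mmp9 rose by 2.18 ± 0.51 by the nilotinib end (adjusted p 7.4e-04), and Slc9a3r1, a scaffold that binds ezrin, by 2.09 ± 0.13.

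Itga4, the α4 subunit of VLA-4, rose at both nilotinib midpoints and was not called against its start at either nilotinib end. In Bin-2 with nilotinib the arrays read 10.51, 10.52 and 10.27 at the start, 10.96, 10.98 and 11.04 at the midpoint and 10.48, 10.42 and 10.63 at the end. In 8093 with nilotinib they read 9.28, 9.17 and 9.14, then 9.93, 9.48 and 9.59, then 9.33 and 9.29 at the same stages. The midpoint arrays lay above all start arrays in both lines. The midpoint changes were 0.56 ± 0.10 in Bin-2 (adjusted p 0.0011) and 0.47 ± 0.10 in 8093 (adjusted p 4.0e-04), and the end changes were 0.07 and 0.11, not called. With lonafarnib Itga4 took another course, and the 2 lines differed. In Bin-2 the arrays read 10.52, 10.43 and 10.37 at the start, 10.52, 10.63 and 10.57 at the midpoint, and 9.68, 9.63 and 9.69 at the end, a fall of 0.78 on the log2 scale from the start (SE 0.10, adjusted p 4.2e-06). In 8093 they read 9.35, 9.36 and 9.19, then 9.37, 9.34 and 9.56, then 9.75 and 9.57, a change of 0.36 ± 0.12 at the end (adjusted p 0.05, just short of the threshold). That last value was called under 6 of the alternative settings, such as quantile normalization (0.41, adjusted p 0.0163). At the lonafarnib end the means of the lines were 9.67 in Bin-2 and 9.66 in 8093, against 10.44 and 9.30 at the start. Itgb7, the other partner of α4, named after its values were seen, rose by 0.85 at the nilotinib midpoint and 1.24 at its end in Bin-2, and by 0.91 and 1.86 at the same stages in 8093, and was not called with lonafarnib.

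Itga5, the α5 subunit of VLA-5, rose at both nilotinib ends and, in 8093, already at the midpoint. In Bin-2 with nilotinib the arrays read 6.17, 6.10 and 6.25 at the start, 6.33, 6.34 and 6.54 at the midpoint and 7.13, 6.75 and 6.41 at the end. Those of 8093 with nilotinib read 6.53, 6.37 and 6.59, then 7.26, 7.54 and 6.91, then 7.46 and 7.21. All later arrays lay above the starts. The end changes were 0.59 ± 0.15 in Bin-2 (adjusted p 0.011) and 0.84 ± 0.17 in 8093 (adjusted p 1.4e-04), and the Bin-2 call was lost without start replicate 2 (adjusted p 0.0554) or end replicate 1 (adjusted p 0.155). At the lonafarnib end of Bin-2 the change of 0.48 ± 0.15 was barely called (adjusted p 0.048) and was lost when any 1 of the 6 arrays was left out (largest adjusted p 0.246). In 8093 with lonafarnib the arrays ranged from 6.48 to 6.91 over the course and no change was called.

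Itgb1, the β1 subunit shared by VLA-4 and VLA-5, had the narrowest range, from 9.17 to 10.00 over all 34 arrays. It rose at both ends of 8093, by 0.43 ± 0.12 with nilotinib (9.84 and 10.00, against 9.48, 9.46 and 9.53 at the start, adjusted p 0.0041) and by 0.44 ± 0.12 with lonafarnib (9.96 and 9.73, against 9.46, 9.46 and 9.28, adjusted p 0.019). Both end groups lay above their starts. The nilotinib call was lost without end replicate 2 (0.35, adjusted p 0.0675) or in a fit of that course alone (adjusted p 0.0701), and the lonafarnib call without end replicate 1 (0.33, adjusted p 0.238) or start replicate 3 (0.38, adjusted p 0.096). In Bin-2 the end changes were 0.09 with nilotinib and 0.15 with lonafarnib, not called.

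Other integrin subunits included myeloid and megakaryocyte ones with large changes. Of 23 measured, 6 rose and none fell by the nilotinib end in Bin-2 (median change 0.23), against 4.95% and 3.94% of all genes, and 11 rose and 2 fell in 8093 (median 0.26), against 19.6% and 24.9%. Itgam, the αM subunit of the myeloid integrin Mac-1, rose by 4.30 ± 0.40 in Bin-2 (adjusted p 7.8e-09) and by 4.66 ± 0.45 in 8093 (adjusted p 4.4e-10), and is also one of the macrophage markers. Itgax, the αX subunit, rose by 2.99 ± 0.25 in Bin-2, and Itga2b, the platelet and megakaryocyte subunit, by 6.65 ± 0.25 in 8093 (adjusted p 3.5e-19). At the lonafarnib ends 1 rose and 1 fell in Bin-2 (4.66% and 3.41% of all genes), where Itga6, a laminin-binding subunit, fell by 1.91 on the log2 scale (adjusted p 2.3e-11), and 1 rose and 2 fell in 8093 (4.4% and 4.31%). Among 28 genes of integrin activation, 1 rose and 1 fell by the nilotinib end in Bin-2 (median 0.12, against 4.95% of all genes rising and 3.94% falling), and 14 rose and 8 fell in 8093 (median 0.41, against 19.6% and 24.9%). Rasgrp2, the exchange factor that activates RAP1 ahead of integrins, fell by 0.38 on the log2 scale in Bin-2 (adjusted p 0.045) and fell by 3.64 on the log2 scale in 8093 (adjusted p 1.5e-19), while Fyb, an adaptor of the same pathway, rose by 5.85 ± 0.31 in 8093. Fibronectin (Fn1), a ligand of both VLA-4 and VLA-5 and one of the fibroblast markers, rose by 2.82 ± 0.45 at the nilotinib end of Bin-2 (adjusted p 4.3e-05) and by 4.44 ± 0.50 at that of 8093 (adjusted p 1.0e-08). The mean over all 23 fibroblast markers moved far less, from 4.82 to 4.99 in Bin-2 and from 4.76 to 5.11 in 8093. Of 15 ligands of the niche, 2 rose and none fell in Bin-2 (median change 0.07), against the same 4.95% and 3.94%, and 3 rose and 2 fell in 8093 (median -0.11), against 19.6% and 24.9%, at the nilotinib ends.

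Cd9, the tetraspanin, rose with nilotinib in both lines. In Bin-2 the arrays read 6.01, 4.99 and 5.77 at the start, 8.40, 6.83 and 7.92 at the midpoint and 9.53, 9.33 and 8.24 at the end. In 8093 they read 8.05, 7.72 and 7.89, then 9.54, 10.11 and 9.37, then 10.73 and 9.55 at the same stages. The later arrays lay above every start array of their course. The end changes were 3.44 ± 0.35 in Bin-2 (10.9-fold, adjusted p 3.8e-08) and 2.25 ± 0.39 in 8093 (4.77-fold, adjusted p 1.5e-05). With lonafarnib Cd9 rose in Bin-2 at the midpoint, where the arrays read 7.18, 6.70 and 7.18, against 5.50, 5.73 and 5.02 at the start (1.60 ± 0.35, adjusted p 0.0024). At the end of that course they read 5.86, 6.96 and 6.38, a change of 0.98 ± 0.35 (adjusted p 0.086), called only when end replicate 1 was left out (adjusted p 0.042). In 8093 with lonafarnib the changes of 0.59 and 0.67 were not called. They were called in a fit of that course alone (adjusted p 0.014 at the midpoint and 0.016 at the end). At the nilotinib ends the lines had means of 9.03 in Bin-2 and 10.14 in 8093, against 5.59 and 7.88 at the start. Of 23 other tetraspanins and their partners, 1 rose and 1 fell by the nilotinib end in Bin-2 (median change -0.01, with 4.95% of all genes rising and 3.94% falling), and 9 rose and 5 fell in 8093 (median 0.09, with 19.6% and 24.9%). Cd63, a tetraspanin of lysosomes and secretory granules, rose by 3.99 ± 0.43 in Bin-2 (adjusted p 1.0e-07) and by 6.29 ± 0.48 in 8093 (adjusted p 3.1e-12).

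Cd34, the progenitor sialomucin, had the widest range of the 9 and was not above the olfactory level at any start. In Bin-2 with nilotinib the arrays read 4.21, 4.33 and 3.97 at the start, 5.67, 4.83 and 5.22 at the midpoint and 7.28, 7.64 and 7.42 at the end. In 8093 with nilotinib they read 3.79, 4.03 and 4.35 at the start, 7.77, 8.48 and 7.49 at the midpoint, and 10.95 and 11.18 at the end. Each stage lay above the one before it, with no overlap, in both lines. The end changes were 3.28 ± 0.24 in Bin-2 (adjusted p 3.9e-11) and 7.01 ± 0.26 in 8093 (adjusted p 2.4e-19). Measured from the olfactory level of the start, the rise was at least 7.32-fold in Bin-2 and at least 85.5-fold in 8093 at the end, and at least 1.58-fold and at least 9.63-fold at the midpoint. The olfactory level was higher at those midpoints than at the starts, 4.69 against 4.58 in Bin-2 and 5.17 against 4.65 in 8093. The midpoint call in Bin-2 (1.07 ± 0.24, adjusted p 0.0061) was lost without midpoint replicate 1 (adjusted p 0.0899). With lonafarnib a rise was called at the midpoint of 8093, where the arrays read 5.44, 4.85 and 4.69, against 3.81, 4.52 and 3.97 at the start (0.89 ± 0.24, adjusted p 0.012, at least 1.33-fold from the olfactory level). That call was lost without start replicate 1, start replicate 3 or midpoint replicate 1 (largest adjusted p 0.103). In Bin-2 with lonafarnib the arrays stayed between 4.03 and 4.98. Mast cell markers moved with it at both nilotinib ends, where their mean was 6.62 in Bin-2 and 10.65 in 8093, against 4.33 and 3.91 at the start. In 8093 with lonafarnib that mean was 3.85, 5.87 and 4.96 over start, midpoint and end, with 11 of 14 markers above the olfactory level at the midpoint. At the nilotinib midpoint of Bin-2 it was 4.29, against 4.33 at the start, and there the macrophage mean was 7.90, against 5.59, and the mean of 11 megakaryocyte and endothelial markers 5.41, against 4.54. The part of these markers in the changes of Cd34 was not tested. Cpa3, a mast cell protease, averaged 11.48 in Bin-2 and 13.59 in 8093 at the nilotinib ends.

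Thy1 was the receptor that fell at the end of all 4 courses. In Bin-2 the arrays read 6.61, 6.54 and 6.67 at the nilotinib start, 5.95, 5.70 and 5.46 at the midpoint and 5.46, 5.44 and 5.89 at the end. In 8093 they read 8.67, 8.53 and 8.65, then 7.61, 7.16 and 7.91, then 5.21 and 5.37. With nilotinib the midpoint was already below every start array in both lines. With lonafarnib Bin-2 read 6.41, 6.78 and 6.67 at the start, 6.43, 6.72 and 6.40 at the midpoint and 5.31, 5.28 and 5.49 at the end, and 8093 read 8.92, 8.57 and 8.89, then 8.55, 8.57 and 8.68, then 6.57 and 6.58. Under lonafarnib the midpoint overlapped the start and the fall was seen at the end. The end changes were -1.01 ± 0.15 with nilotinib and -1.26 ± 0.15 with lonafarnib in Bin-2, and -3.33 ± 0.17 with nilotinib and -2.22 ± 0.17 with lonafarnib in 8093, with adjusted p of at most 2.3e-05. These 4 calls held in every fit that left out an array. At the lonafarnib end of 8093, where the pre-B marker mean was 8.53 against 8.65 at the start, Thy1 was the receptor with the largest change. At the ends the group means were 5.60, 5.36, 5.29 and 6.58 in Bin-2 with nilotinib, Bin-2 with lonafarnib, 8093 with nilotinib and 8093 with lonafarnib.

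Of 16 other surface genes of progenitors, 3 rose and 1 fell by the nilotinib end in Bin-2 (median change -0.02), where 4.95% of all genes rose and 3.94% fell, and 6 rose and 8 fell in 8093 (median -0.28), where 19.6% rose and 24.9% fell. Kit, the stem cell factor receptor, which is also a mast cell marker, rose by 1.23 ± 0.18 in Bin-2 (adjusted p 1.0e-05) and by 6.90 ± 0.20 in 8093 (adjusted p 1.4e-21). At the lonafarnib ends 1 rose and 2 fell in Bin-2 (4.66% and 3.41% of all genes), where Kit fell by 2.44 on the log2 scale (adjusted p 3.8e-11), and 2 rose and 4 fell in 8093 (4.4% and 4.31%), where Flt3, a receptor of early lymphoid progenitors, fell by 1.96 on the log2 scale (adjusted p 2.1e-10). Of 37 other genes of chemokine reception, 10 rose and 2 fell by the nilotinib end in Bin-2 (median change 0.12), and 17 rose and 7 fell in 8093 (median 0.15), against those same shares of all genes at the nilotinib ends. Ccr1, a myeloid chemokine receptor, rose by 3.66 ± 0.41 in Bin-2 and by 5.09 ± 0.46 in 8093, and Cxcr5, a receptor of B cells, fell by 4.79 on the log2 scale in 8093 (adjusted p 5.2e-21). At the lonafarnib end of Bin-2 Ccr2 fell by 3.06 on the log2 scale (adjusted p 7.5e-09).

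Set in order of group mean, most neighbouring groups were not called different. Cd34 ran from 11.06 at the nilotinib end of 8093 to 7.91 at its midpoint and 7.45 at the nilotinib end of Bin-2, not called against that midpoint, and then 5.24 at the nilotinib midpoint of Bin-2 (2.21 lower, adjusted p 3.2e-07), with no call between neighbours below. Cd44 had the same 3 groups on top, at 9.19, 8.37 and 7.69, of which 9.19 and 8.37 differed (adjusted p 0.036) and 8.37 and 7.69 were not called (adjusted p 0.057). The call between 9.19 and 8.37 was lost after quantile normalization (adjusted p 0.226) and with a replicate block by number (adjusted p 0.126). It was also lost in a fit of that course alone (adjusted p 0.051). For Cd9, from 10.14 down to 5.42, and for Itgb1 no neighbours were called different. Itga4 had one large step, between 10.43 in the nilotinib start of Bin-2 and 9.67 at the nilotinib midpoint of 8093 (adjusted p 4.4e-07), and Itga5 a single step, from 7.24 at the nilotinib midpoint of 8093 down to 6.76 at the nilotinib end of Bin-2 (adjusted p 0.013). Thy1 had steps below 8.60 at the lonafarnib midpoint of 8093 (adjusted p 2.8e-06), below 7.56 at the nilotinib midpoint of 8093 (adjusted p 7.9e-06) and below 6.52 at the lonafarnib midpoint of Bin-2 (adjusted p 6.4e-04).

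Several receptors tracked the marker lists over the 12 groups, which is given as a description because the groups share lines and arrays. Cd34 and the mast cell mean had a Pearson r of 0.96, Cd44 and the macrophage mean 0.94, Cd44 and the mean of 11 megakaryocyte and endothelial markers 0.98, and Cxcr4 and the pre-B mean 0.98. Cd34 was about as close to the megakaryocyte and endothelial mean (0.95). Within 8093, Cd44 and Cd9 had an r of 0.99 and 0.98 with the mast cell mean. The value for Cxcr4 rests on the nilotinib end of 8093, since within the 6 groups of Bin-2 it was 0.52. Cd9 and the macrophage mean had an r of 0.57 over both lines but 0.99 within Bin-2 and 0.96 within 8093, and Cd9 started higher in 8093. Within groups, the arrays followed the macrophage mean in some and not in others. Among midpoint and end groups, the order of Cd44 matched that of the macrophage mean in all but the lonafarnib midpoint of Bin-2. At the nilotinib end of Bin-2 the macrophage mean was 9.14, 9.20 and 7.85 on replicates 1, 2 and 3, and the third array was also the lowest for Cd44 (7.13) and Cd9 (8.24), but not for Cd34 (7.42). At the nilotinib midpoint of Bin-2 the macrophage mean ranged from 7.22 to 8.49, lowest on replicate 2, which was also the lowest for Cd44 (6.11), Cd9 (6.83) and Cd34 (4.83). At the nilotinib end of 8093 the array with the higher macrophage mean had the higher Cd44 and Cd9. Both genes also had the same order of arrays as the macrophage mean at the midpoints of 8093 and at the lonafarnib end of Bin-2. At the lonafarnib end of 8093 the array with the higher macrophage mean (6.02, against 5.04) had the lower Cd9 (8.63, against 8.78) and the higher Cd44 (4.80, against 4.39). At the lonafarnib start of Bin-2 the highest macrophage mean (5.72) fell on the array with the lowest Cd44 (4.69, beside an olfactory level of 4.70). At the midpoint of that course the lowest macrophage mean was on replicate 2 and the lowest Cd44 on replicate 3. Lyz2 and Mmp12, the brightest macrophage markers, averaged 12.13 and 11.61 at the nilotinib end of Bin-2. The part of these markers in the results for Cd44 and Cd9 was not tested.

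**Figure D4:**
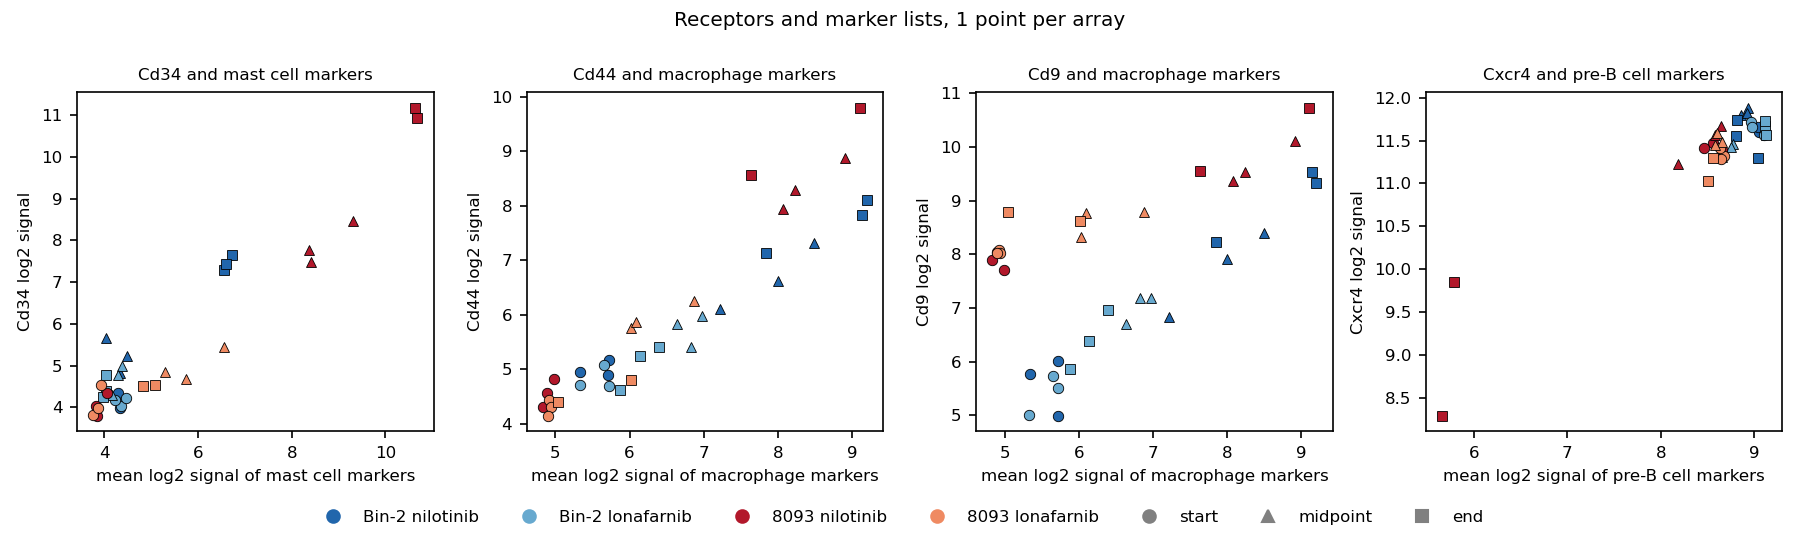
Log2 signal of a receptor (y axis) against the mean log2 signal of a marker list (x axis), 1 point per array, coloured by course and shaped by stage. Cd44 follows the macrophage mean in both lines together, Cd9 does so along a separate line in each cell line, and the low Cxcr4 points are the 2 arrays at the nilotinib end of 8093.

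Between receptors, Cd44 and Cd34 were the pair most alike over the 12 groups (r 0.94, with 0.95 within Bin-2 and 0.96 within 8093), followed by Cd9 and Itga5 (0.87). Among 1709 genes whose group means spanned at least 2 log2 units, the genes most like each receptor were found over the 12 group means. For Cd44 these were Anpep (0.99), Ccr1 and Ctsd, for Cd34 Cd200r4 (0.99), Cd200r1 and Tbxas1, and for Cd9 Inppl1 (0.96), Capn2 and Gsn. For Cxcr4 they were Cecr2 (0.99), Jakmip1 and Pou2af1, and for Thy1 Vash2 (0.93), Bcat1 and Bdh1. Selplg was most like Mcm7 (0.97), H4c4 and Nipsnap1, Itga4 like Khdrbs3 (0.93), Trim2 and Tanc1, Itga5 like Eps8 (0.93), Aplp2 and Ell2, and Itgb1 like Cst7 (0.92), Plgrkt and Zcwpw1.

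Between midpoint and end 2 receptors were called in 3 of the courses, and 7 in 8093 with nilotinib. In Bin-2 with nilotinib 2 of 9 were called, against 1.41% of genes, Cd34 up by 2.21 ± 0.24 (0.998% of genes rose) and Itga4 down by 0.49 on the log2 scale (0.416% fell). The Itga4 call was lost without midpoint replicate 3, end replicate 1 or end replicate 2 (largest adjusted p 0.0927), while Cd44 and Cd9 were called as well without midpoint replicate 1 or end replicate 3. In Bin-2 with lonafarnib 2 were called, against 29.7%, and both fell (9.97%, with 19.8% rising), Itga4 by 0.91 and Thy1 by 1.16. In 8093 with nilotinib 7 were called, against 54.5%, of which Cd34, Cd44 and Itgb1 rose (26.7%) by 3.15, 0.82 and 0.48, and Cxcr4, Thy1, Selplg and Itga4 fell (27.8%) by 2.42, 2.27, 0.44 and 0.36 on the log2 scale. After quantile normalization the calls of Cd44 (adjusted p 0.226) and Itgb1 (adjusted p 0.128) were lost. Without end replicate 1 of 8093 the values of Cd44 and Selplg were 0.21 (adjusted p 0.672) and -0.46 (adjusted p 0.0547). Without end replicate 2 those of Selplg and Itga4 were -0.42 (adjusted p 0.073) and -0.34 (adjusted p 0.064). In 8093 with lonafarnib 2 were called, against 6.26%, and both fell (2.31%, with 3.95% rising), Cd44 by 1.36 and Thy1 by 2.02. Cd34 was the receptor that rose in this step under nilotinib in both lines, and Thy1 the one that fell in it under lonafarnib in both.

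Whether nilotinib and lonafarnib moved the receptors differently was tested as the difference between the changes from each course's own start. Days and modes of action differ between the drugs, so these are comparisons of courses. In Bin-2, 4 of 9 receptors were called at the end, against 9.51% of genes, with larger rises under nilotinib for Cd34, Cd9 and Cd44, and for Itga4 a difference of 0.85 (adjusted p 2.4e-04), its fall being called under lonafarnib and no change being called under nilotinib. In 8093, 6 were called at the end, against 33.2%, and 4 at the midpoint, against 26.8%. At the midpoint of Bin-2 limma called 0, against 1.48%, with 2 receptors at an unadjusted p below 0.05. Between the lines under the same drug, whose doses differ, 5 receptors were called at the nilotinib end, against 30.6%, and 2 at the nilotinib midpoint, against 26%. With lonafarnib 2 were called at the end, against 4.61%, and limma called 0 at the midpoint, against 4.2%, with 2 at an unadjusted p below 0.05. Among receptors not called, Cxcr4 had a difference between the drugs of -0.10 at the end of Bin-2, with a 95% interval of -0.68 to 0.47.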

How the data were processed

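Log2 signals of 35557 probesets on 34 arrays were used as deposited in the series matrix. The submitters' processing notes name Partek, and no source used here gives the background correction, normalization or summarization behind the log2 values. Of these probesets, 21789 are listed with 1 gene symbol in the platform annotation, 1621 with several and 12147 with none, and the probeset of highest mean was kept for each of 19938 genes. No 2 arrays held identical values.

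A group mean model was fitted to all 34 arrays with limma 3.58.1 in R 4.3.3 (lmFit and eBayes, 22 residual degrees of freedom). P-values were Benjamini-Hochberg adjusted over all genes within each of 23 comparisons, and a call is an adjusted p below 0.05. Errors of changes are standard errors of the fit. The number of arrays limits the precision. The fit was tested on simulated data with known changes.

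The receptors, companion gene lists and marker lists were chosen with earlier results of these data known. Beside the 9 receptors, the text names up to 2 called genes of largest change per companion list and comparison with a start, the 3 genes most alike to each receptor, and the 2 brightest genes of a marker list. Itgb7, Cxcl12 and the nilotinib values of Cd24a lie outside that rule and were chosen after values were seen.

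Replicate numbers did not pair the arrays. Deviations of same-numbered arrays from their group means had a median correlation of -0.012 over 32 pairs, with 2 above 0.1. Plate letters differ from these numbers at both ends of 8093. By plate letter the median was 0.025 over 32 pairs, with 4 above 0.1. Those included both pairs of midpoint and end in 8093 with nilotinib (0.148 and 0.140). The alternatives tried were quantile normalization, a filter on dim genes (highest group mean under 5), the mean of a gene's probesets, every probeset tested, a trended robust prior, only the courses compared, a replicate block by number or plate letter, both starts of a line as the reference, a fit without midpoint arrays (chosen after seeing the data) and each array left out in turn. Lonafarnib doses are in µM as in the labels' treatment protocol, while the series' design text has mM.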

Additional observations from a re-analysis of the deposited data

Results flagged for a closer look

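The change of a receptor from its own start differed between the drugs or between the lines in 23 cases (limma, adjusted p below 0.05 for the difference itself). Between drugs, 4 and 6 of 9 were called at the midpoint and end of 8093, against 26.8% and 33.2% of all genes. In Bin-2 it was 0 and 4, against 1.48% and 9.51%. Between lines, 2 and 5 were called with nilotinib, against 26% and 30.6%, and 0 and 2 with lonafarnib, against 4.2% and 4.61%. At the nilotinib midpoint receptors were thus called no more often than genes at large. Doses differ between the lines, and days differ between the courses, so none of these is a matched-dose comparison. Differences between drugs are nilotinib minus lonafarnib, and those between lines Bin-2 minus 8093.

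Cd34 was not above the olfactory level at any start, at either lonafarnib end or at the lonafarnib midpoint of Bin-2, and Cd44 was not above it at the starts of 8093. Differences that use those groups are therefore fitted log2 values against signal at background and give no fold. At the end of Bin-2 the drugs differed for Cd34 by 2.94 ± 0.33 (SE, adjusted p 3.7e-07), for Cd9 by 2.46 ± 0.49, for Cd44 by 2.41 ± 0.41 and for Itga4 by 0.85 ± 0.15. Itga4 had changes of 0.07 under nilotinib and -0.78 under lonafarnib. At the midpoint of 8093 they differed for Cd34 by 2.97 ± 0.33, Cd44 by 2.15 ± 0.41, Itga5 by 0.85 ± 0.22 and Thy1 by -0.86 ± 0.22. At the end of 8093 they differed for Cd34 by 6.59 ± 0.37 (adjusted p 1.3e-14), Cd44 by 4.33 ± 0.46, Cxcr4 by -2.18 ± 0.32, Thy1 by -1.11 ± 0.24, Cd9 by 1.59 ± 0.55 and Itga5 by 0.81 ± 0.24. Without nilotinib end replicate 1 of 8093 the Cd9 difference was 1.00 (adjusted p 0.248) and the Itga5 difference 0.68 (adjusted p 0.0646), and neither was called.

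Between the lines, the nilotinib midpoint differed for Cd34 by -2.79 ± 0.33 and Cd44 by -2.13 ± 0.41, both rising more in 8093. The nilotinib end differed for Cd34 by -3.73 ± 0.35 (adjusted p 8.5e-10), Cd44 by -1.95 ± 0.44, Thy1 by 2.32 ± 0.23, Cxcr4 by 2.26 ± 0.30 and Selplg by 0.78 ± 0.20. Thy1 changed by -1.01 in Bin-2 and -3.33 in 8093, both called. Cxcr4 and Selplg changed by -0.09 and -0.12 in Bin-2, not called, and by -2.36 and -0.89 in 8093, where the pre-B marker mean was 5.73 at that end. The lonafarnib end differed for Itga4 by -1.14 ± 0.16, with changes of -0.78 in Bin-2 and 0.36 in 8093, and for Thy1 by 0.96 ± 0.23.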

How the results depend on the processing

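No called change of a receptor turned its direction under any alternative. Of 1701 receptor values under other settings, 1658 stayed on the same side of the threshold, 18 lost the call and 25 gained one, and of 1656 values with 1 array left out, 1608 stayed, 34 lost and 14 gained it. Each receptor had 1 probeset and passed the filter on dim genes. Its changes were therefore fixed under that filter, the mean of probesets, every probeset tested and the trended robust prior. The same holds for fits of the compared courses only or without midpoint arrays. There only errors and adjusted p-values could differ, so these settings do not test the size or direction of a change. Apart from the fits with 1 array left out, given below, the number of receptors called was within 1.5 times under every setting except these. For the difference between drugs at the midpoint of Bin-2 it was 1 (Thy1) in place of 0 without dim genes and with a trended robust prior. From midpoint to end of Bin-2 with nilotinib it was 1 in place of 2 in a fit of that course alone. With a replicate block, by number or by plate letter, it was 1 in place of 2 at the lonafarnib end of 8093, and the numbers do not pair the arrays. No block was possible between start groups, and a fit of the compared courses alone would be the fit to all arrays for the comparison of lines.

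With 1 array left out, the number called against the start ranged from 4 to 5 at the nilotinib midpoint and from 4 to 5 at the nilotinib end of Bin-2, from 1 to 2 at its lonafarnib midpoint and from 2 to 3 at its lonafarnib end. In 8093 it was 7 at the nilotinib midpoint throughout, from 7 to 8 at the nilotinib end, and from 1 to 2 at both later lonafarnib stages. From midpoint to end it ranged from 1 to 4 in Bin-2 with nilotinib, was 2 in Bin-2 with lonafarnib, and ranged from 5 to 7 in 8093 with nilotinib and from 1 to 2 in 8093 with lonafarnib. Differences between drugs gave 0 to 1 at the midpoint and 4 at the end of Bin-2, and 4 to 5 and 4 to 7 at those of 8093. Differences between lines gave 2 to 3 and 5 to 6 with nilotinib and 0 and 2 with lonafarnib, and the starts gave 4 between lines and 0 within each.

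Low signal limits Cd34, not above the olfactory level at any start, and Cd44, not above it at the starts of 8093. Folds of their called rises from those starts are therefore lower bounds as measured from the olfactory level of the start. That level was higher at every midpoint than at its start. The nilotinib midpoint of 8093 and the lonafarnib midpoint of Bin-2 had the narrowest spread of values (interquartile range 3.03 and 3.16, against 3.42 to 3.55 in the other groups). What made those arrays narrower was not tested. The ends of 8093 rest on 2 arrays each.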
